A study of Mus musculus with 3 samples.

Results

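The colony-stimulating factors and their receptors were measured in the cytosolic RNA of mouse macrophages that had been given Lipid A a second time. They are 8 of 55536 annotated genes and were taken by name through the annotation M21. The set has 3 ligand genes, Csf1, Csf2 and Csf3, and 5 receptor genes, Csf1r, Csf2ra, Csf2rb, Csf2rb2 and Csf3r. The cells were bone-marrow-derived macrophages of the C57BL/6J strain, grown in culture from bone marrow. Lipid A, the membrane anchor of bacterial lipopolysaccharide and the ligand of Tlr4, was applied at 100 ng/ml for 12 hours, withdrawn for 12 hours and applied again at 100 ng/ml for 40 minutes. The 3 libraries of ribosomal-RNA-depleted total RNA are biological replicates 1, 2 and 3 of this 1 group. The growth factor that drove the cultures is not given in the sources used here, and the labels do not say whether the replicates came from separate animals, so p-values measure only the spread between these samples. Unstimulated cells, cells stimulated once and other fractions were not analysed here, and every value is therefore a level and not a response.

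Colony-stimulating factors are secreted proteins that make myeloid cells survive, divide and mature. Csf1 (M-CSF) acts on the receptor tyrosine kinase Csf1r, which most macrophages need to live and which also binds the cytokine Il34. Csf2 (GM-CSF) binds the alpha chain Csf2ra, which pairs with the beta chain Csf2rb. Csf2rb also serves the alpha chains of Il3 and Il5, whereas mice carry a second beta chain, Csf2rb2, that serves Il3 alone. Csf3 (G-CSF) acts through Csf3r, which is best known from neutrophils and is also made by monocytes and macrophages. Activated macrophages can make all 3 factors, and the mRNAs of Csf2 and Csf3 are known to be short-lived because proteins such as Zfp36 bind AU-rich stretches behind their coding parts.

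The sequences below are those on which the distinctions between these mRNAs rest, copied from the M21 transcripts (mm10 build). The first lines show 30 bases of the part behind the coding sequence of each ligand mRNA, at the densest group of the AU-rich pentamer ATTTA, which is in capitals. They lie at chr11:54247329-54247358 on the minus strand for Csf2, at chr11:98702984-98703013 on the plus strand for Csf3 and at chr3:107741109-107741138 on the minus strand for Csf1.
Csf2-201: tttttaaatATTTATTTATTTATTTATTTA
Csf3-201: gatagtttATTTAtctctATTTAatATTTA
Csf1-201: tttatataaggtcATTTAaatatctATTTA
The 317 bases behind the coding part of Csf2 hold 9 matches to ATTTA on the transcript strand, overlapping matches included. As many are held by 0.0184% of 16337 such stretches, cut to the same length. These are the longest stretch of each gene, with the gene in question not left out. Csf3 has 6 matches in 669 bases, a number reached by 1.30% of 12765 stretches. Csf1-201 has 4 in 2111 bases, which 49.6% of 5009 stretches reach. A match is a description of the letters and not a site of binding.

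The next lines show where Csf1-201 and Csf1-202, the forms with a full and a short exon 6, part. Both are read from the minus strand of chromosome 3, and 20 bases of exon 5, which ends at position 107750311, are followed by 20 bases of exon 6 in capitals. Exon 6 begins at position 107749169 in the full form and at position 107748284 in the short form, which leaves out most of the exon and with it the part that lets Csf1 be cut free and secreted.
Csf1-201: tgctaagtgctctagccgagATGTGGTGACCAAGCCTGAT
Csf1-202: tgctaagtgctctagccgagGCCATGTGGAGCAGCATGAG
The beta chains are near-identical copies, and the stretch of 90 coding bases with the most differences shows how reads can be told apart. It lies at chr15:78338897-78338986 on the plus strand in Csf2rb and at chr15:78294345-78294434 on the minus strand in Csf2rb2, with the 16 differing bases in capitals.
Csf2rb-201: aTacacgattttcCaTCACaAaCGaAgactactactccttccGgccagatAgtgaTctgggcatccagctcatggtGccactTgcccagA
Csf2rb2-201: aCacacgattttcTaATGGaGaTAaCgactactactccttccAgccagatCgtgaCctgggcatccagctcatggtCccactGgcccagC

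The libraries held 38197192, 46327891 and 38685666 expected counts on annotated genes in replicates 1, 2 and 3. A count of 0 allows up to 3 counts, which is 0.0785, 0.0648 and 0.0775 CPM (counts scaled to library size) in these libraries. Intervals and bounds here cover counting error only. Levels are given as TPM, a measure that divides by length and so allows genes to be compared. Among gene-level values 54.4% to 63.0% of TPM fell on 7SL RNA, so the TPM of an mRNA is a share of a total that is mostly 7SL. All 7 macrophage markers were detected, led by the lysozyme gene Lyz2 at 3020 ± 549 TPM (SD, n = 3) and the lysosomal Cd68 at 618 ± 59.2 TPM. The nuclear RNA Malat1 had 1445, 485 and 1726 TPM and Neat1 87.7, 16.1 and 88.3 TPM in replicates 1, 2 and 3, so replicate 2 was lowest in both.

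Csf1, the 5 receptors and neither of the other ligands were detected, where detection asked each of the 3 libraries for at least 1 TPM. These are 6 of 8 genes, beside 41.4% of 22028 protein-coding genes. The median level of the 8 genes was 4.99 on the log2(TPM + 1) scale, against 0.23 over all protein-coding genes and 3.25 over the detected ones. Csf1r stood far above the rest, Csf3r, both beta chains and Csf2ra lay close together below it, and Csf1 was lowest of the detected genes. Fewer cells with a transcript and less of it per cell cannot be told apart in such bulk RNA.

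**Figure D1:**
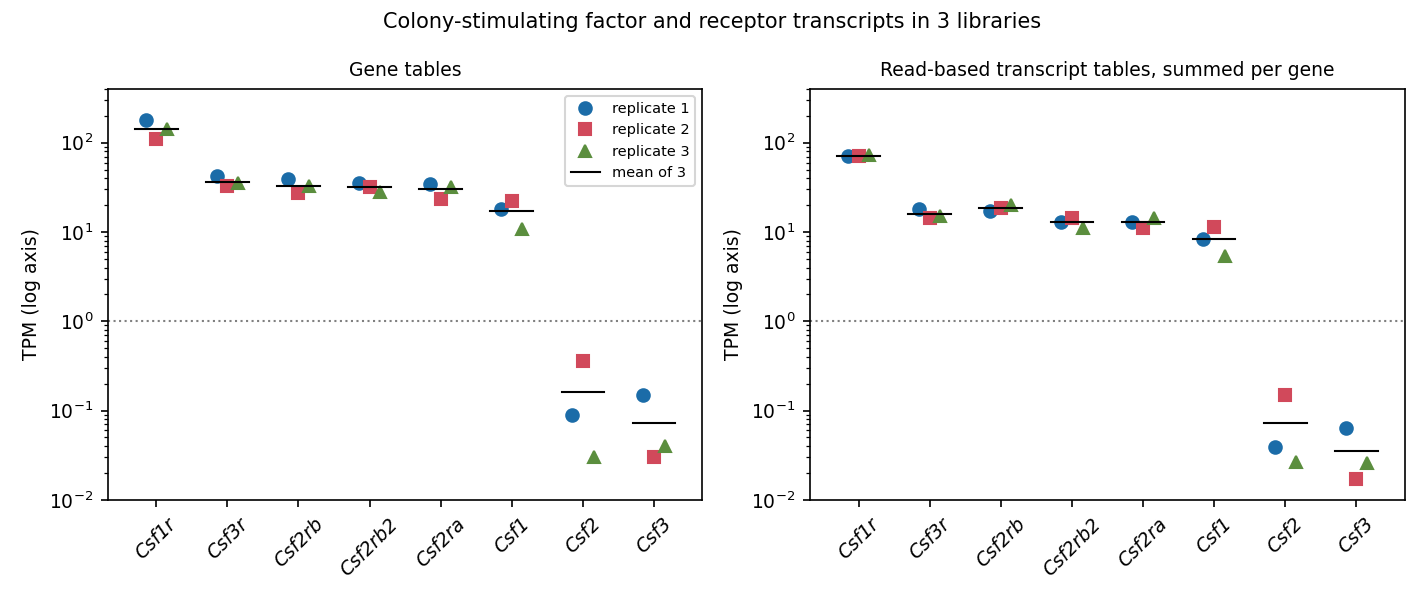
TPM (log axis) of the 8 genes in each of the 3 libraries, from the gene tables (left) and from the read-based transcript tables summed per gene (right). Bars are means of 3 libraries and the dotted line is a TPM of 1. Csf1r is highest in both, with means of 143 TPM and 71.3 TPM, and Csf2 and Csf3 lie below 1 TPM in every library.

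Among the ligands, Csf1 (ENSMUSG00000014599.10, chromosome 3, 107741048 to 107760469, minus strand) had 18.3, 22.0 and 10.9 TPM in replicates 1, 2 and 3, from 3136, 5908 and 2368 expected counts. It was highest in replicate 2 and lowest in replicate 3, and its mean was 17.1 ± 5.65 TPM. Csf2 (ENSMUSG00000018916.5, chromosome 11, 54247271 to 54249667, minus strand) had 3, 17 and 1 counts, or 0.090, 0.36 and 0.030 TPM. The 17 counts of replicate 2 have an exact 95% Poisson interval of 9.90 to 27.2, and the 3 counts of replicate 1 one of 0.62 to 8.77. Replicate 2 thus held the most Csf2 as well as the most Csf1. Its Csf2 interval lies apart from that of replicate 1 and from the 0.025 to 5.57 of replicate 3. The intervals of replicates 1 and 3 overlap, and Csf2 values this small allow no firm order beyond counting error. Csf3 (ENSMUSG00000038067.2, chromosome 11, 98701263 to 98703629, plus strand) had 10, 3 and 3 counts, or 0.15, 0.030 and 0.040 TPM, and was highest in replicate 1. Its 10 counts have an interval of 4.80 to 18.4, which overlaps the interval of 0.62 to 8.77 for 3 counts. The antisense gene Gm12223, which overlaps Csf2 on the other strand, had no count in any library. Read-based TPM gave 0.072 for Csf2 and 0.036 for Csf3 as means of the 3 libraries.

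Csf1r (ENSMUSG00000024621.16, chromosome 18, 61100598 to 61132149, plus strand), the receptor tyrosine kinase for Csf1, had 179, 110 and 141 TPM from 36082, 36420 and 34452 expected counts. It ranked 309 among protein-coding genes by mean TPM. Its expected counts differed little between libraries, but replicate 2 was the deepest library. Scaled to library size they were 945, 786 and 891 CPM, lowest in replicate 2 as was the TPM. In the read-based tables Csf1r had 70.8, 70.3 and 72.8 TPM, with no such dip. The gene overlaps Hmgxb3 on the other strand by 873 bases, and Hmgxb3 itself had 4.01 TPM on average. The strand setting of the counting is not given in the sources used here, so reads of the shared bases cannot be assigned to a strand.

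Csf3r (ENSMUSG00000028859.14, chromosome 4, 126024550 to 126044440, plus strand), the receptor for Csf3, had 42.7, 32.4 and 34.99 TPM from 6465, 6808 and 6051 counts. Markers of neutrophils, the cells best known for this receptor, were scarce in the same libraries. Of 9 markers only S100a9, at 4.55 ± 0.60 TPM, and S100a8, at 3.22 ± 0.89 TPM, were detected, both of which monocytes and macrophages can also make. The summed level of the 9 lay between 7.02 and 9.87 TPM, below that of Csf3r alone in every library. Ly6g had no count in any library, and Elane, which encodes neutrophil elastase, was at 0.020 TPM in each.

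The beta chain genes lie side by side on chromosome 15 and had near-equal levels in the gene tables. Csf2rb (ENSMUSG00000071713.6, chromosome 15, 78325752 to 78353847, plus strand) had 39.1, 27.5 and 32.4 TPM, and Csf2rb2 (ENSMUSG00000071714.7, chromosome 15, 78282507 to 78305721, minus strand) had 35.6, 32.3 and 28.3 TPM. Csf2rb was the higher in replicates 1 and 3 and the lower in replicate 2. Of the counts on both, Csf2rb held 51.7% in replicate 1 (95% binomial interval 51.0 to 52.5), 46.3% in replicate 2 (45.6 to 47.0) and 52.2% in replicate 3 (51.4 to 52.9). The intervals of replicates 1 and 3 overlap and that of replicate 2 lies apart from both. The read-based tables gave 52.7%, 46.8% and 53.5% in the same order. By read-based TPM the levels were less alike, and Csf2rb was the higher in every library. It had 17.3, 18.6 and 19.9 TPM there, against 13.1, 14.3 and 11.0 TPM for Csf2rb2. These sums include short transcripts. The long coding transcript Csf2rb-201 alone had 13.0, 11.5 and 10.6 TPM there, against 12.0, 13.2 and 9.53 TPM for Csf2rb2-201. Between these transcripts Csf2rb was again the lower in replicate 2.

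How well reads separate these copies bears on that split. The coding parts, 2688 bases in Csf2rb-201 and 2634 in Csf2rb2-201, were identical at 95.2% of aligned bases, differed at 125 bases, and shared a longest identical run of 242 bases. Over whole transcripts, 4764 and 4740 bases with their untranslated parts, 28.9% of the 31-base words of Csf2rb-201 also occur in Csf2rb2-201. The authors' deposited posterior SD of the expected count was 9.44, 10.8 and 10.4 counts for each gene of the pair in replicates 1, 2 and 3, beside 8306 to 11534 expected counts. It was 0 for Csf1, Csf2, Csf3, Csf2ra and Csf3r. The share of reads that fit both copies is not in these tables, and how far the authors' model holds was not tested.

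Csf2ra (ENSMUSG00000059326.7, chromosome 19, 61223957 to 61228429, minus strand), the alpha chain that gives the Csf2 receptor its ligand specificity, had 34.5, 23.5 and 32.1 TPM from 2073, 2315 and 2647 counts. Replicate 2 was lowest. Csf2ra counts were below those of Csf1 in replicates 1 and 2 although the TPM of Csf2ra was higher in all 3 libraries. Csf2ra-201 is 1849 bases long and Csf1-201 4176. Short non-coding transcripts add to the Csf2ra TPM. Csf2ra-204, of 330 bases, had 5.57, 3.13 and 5.27 TPM from 36.4, 29.9 and 38.7 counts by alignment. Csf2ra-201 alone had 17.4, 15.1 and 19.6 TPM there, below the TPM of Csf1 in replicates 1 and 2. The bases before the RefSeq start of Csf2ra, which is also the M21 start of Csf2ra-201, are shown because a run in them holds the core letters that the macrophage factor Spi1 (PU.1) is known to bind. The non-coding Csf2ra-204 starts farther upstream, at position 61228429, so the end of the stretch, with the second match, lies in its first exon. They are 60 bases of the RefSeq promoter table (GRCm38.p6), at chr19:61228419-61228478 on the minus strand, with matches to GAGGAA in capitals.
Csf2ra: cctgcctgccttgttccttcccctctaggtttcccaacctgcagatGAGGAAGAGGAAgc
A promoter window of 250 bases before and 50 after the RefSeq start was searched on both strands for 5 of the 8 genes. Csf1r was left out by choice, and the RefSeq promoter table had no entry for Csf2rb and Csf3. The counts that follow thus cover only a part of the receptors and of the ligands, and GAGGAA was the only motif searched. GAGGAA occurred in the 3 receptor windows searched, those of Csf2ra, Csf2rb2 and Csf3r, and in 0 of 2 ligand windows, those of Csf1 and Csf2. It occurred in 28.3% of all 32851 windows. The RefSeq starts of Csf2 and Csf3r differ from their M21 starts, so their windows are not those of the M21 transcripts.

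Levels of the detected genes were compared within libraries, as differences of log2(TPM + 1), for neighbours in the order of mean TPM and for pairs that belong together. Of 8 pairs 3 passed limma at an adjusted p under 0.05 in a fit of all 9648 detected genes against 1 of the 2 genes. Almost any gene differs from a given gene by this test: 95.7% of 9647 genes differed from Csf3r, 94% from Csf2rb, 94.5% from Csf2rb2, 92% from Csf2ra and 75.3% from Csf1. All rows of such a fit share the 3 values of 1 gene, so the p-values are too small where that gene varies. Against Csf2ra and against Csf1 the SE was the same for every pair, 0.17 and 0.31. It is there a spread pooled over the genes of the fit and not that of the pair. When each gene's own moderated variance was used, an alternative chosen after seeing the data, 3 pairs passed as well. The adjusted p in limma was then 5.33e-06 for Csf1r/Csf3r, 5.86e-06 for Csf1r/Csf1 and 0.0060 for Csf2ra/Csf1. An exact sign test over 3 libraries cannot go below a p of 0.25.

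Csf1r had 179, 110 and 141 TPM and Csf3r, next in the order, 42.7, 32.4 and 34.99 TPM, without overlap. Csf1r exceeded Csf3r by 1.92 ± 0.10 on the log2(TPM + 1) scale (SE, n = 3; limma, adjusted p = 4.49e-10), or 3.78-fold, and was higher in 3 of 3 libraries. From Csf3r down to Csf2ra the neighbours could not be ordered. Csf3r minus Csf2rb was 0.15 ± 0.14 (limma, adjusted p = 0.288). Csf2rb minus Csf2rb2 was 0.03 ± 0.11 (limma, adjusted p = 0.788), with replicate 2 opposite in sign to the others. Csf2rb2 minus Csf2ra was 0.10 ± 0.17 (limma, adjusted p = 0.554), with replicate 3 opposite. The chains of the Csf2 receptor, Csf2rb and Csf2ra, differed by 0.13 ± 0.17 (limma, adjusted p = 0.437), and Csf3r minus Csf2ra was 0.29 ± 0.17 (limma, adjusted p = 0.0921). A p above the threshold does not show that these levels are equal.

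The order within this middle group depended on the quantification. In the read-based tables Csf2rb came above Csf3r, and the difference of Csf3r minus Csf2rb was -0.23 (limma, adjusted p = 0.101). Csf2rb then exceeded Csf2rb2 by 0.51 (limma, adjusted p = 0.000777) and Csf2ra by 0.51 (limma, adjusted p = 0.00304). Csf2rb was the higher in 3 of 3 libraries in either pair, and 5 of the 8 pairs passed. The beta chain counts were split alike in both tables, whereas the TPM of Csf2rb in the read-based tables includes further transcripts that are described below. Without them, Csf2rb-201 was not above Csf2rb2-201 in every library, as given above. Csf2rb2 and Csf2ra were level there, at 12.8 TPM each.

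The receptor Csf1r exceeded its ligand Csf1 by 3.02 ± 0.31 (limma, adjusted p = 1.40e-20), or 8.13-fold, and by 3.22, 2.27 and 3.58 in replicates 1, 2 and 3. The alpha chain Csf2ra exceeded Csf1 by 0.82 ± 0.31 (limma, adjusted p = 0.0133), with 0.88, 0.09 and 1.48 in the same order. The SD between libraries was 0.67 for Csf1r/Csf1 and 0.70 for Csf2ra/Csf1. The first difference was far larger than its spread between libraries and the second rested on 2 of the 3 libraries. Without replicate 1, Csf2ra minus Csf1 was 0.78, which no longer passed (limma, adjusted p = 0.191). Leaving out replicate 2 gave 1.18, which passed (limma, adjusted p = 6.59e-05). With replicate 3 left out it was 0.49 and did not pass (limma, adjusted p = 0.118). These levels include all transcripts of a gene. By alignment, coding transcripts held 51.3%, 64.2% and 60.9% of Csf2ra TPM, against 94.9%, 98.9% and 96.7% of Csf1 TPM. Coding transcripts alone were not compared.

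**Figure D2:**
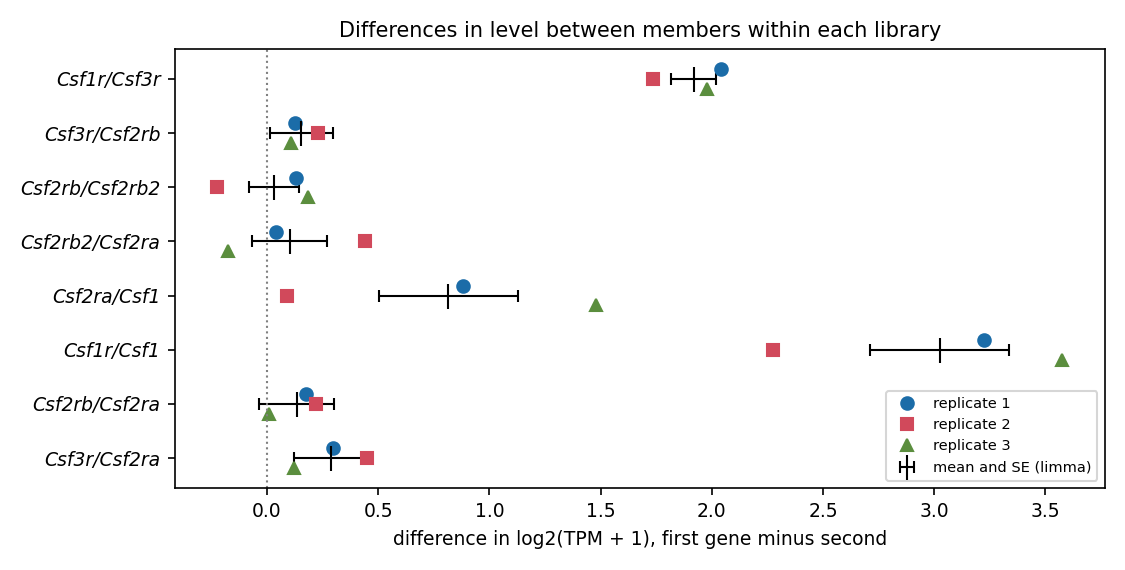
Difference in log2(TPM + 1), first gene minus second, for 8 pairs, with 1 point per library and the mean with its SE from limma as a bar. In the fits against Csf2ra and Csf1 this SE is pooled over genes. Csf1r/Csf3r and Csf1r/Csf1 lie far right of 0 at 1.92 and 3.02, Csf2ra/Csf1 runs from 0.09 to 1.48, and the others lie within 0.45 of 0 in every library.

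Csf1 varied more between libraries than the receptors. On counts normalised with TMM its biological coefficient of variation in edgeR was 0.245, at the 73.1 percentile of 12752 genes, whose median was 0.144. The 5 receptors lay between 0.107 for Csf3r and 0.130 for Csf2ra, all below that median. By the SD of log2 CPM of the same counts Csf2ra lay at the 67.3 percentile and the other receptors between 25.8 and 43.3. Without the filter on low counts the coefficient of Csf1 lay at the 40.0 percentile. Normalised counts of Csf1 were 82.6, 129 and 60.3 CPM. Without replicate 2 its coefficient was 0.136. The log2 TPM of Csf1 in replicate 2 was 0.78 above the mean of the other libraries relative to the median gene, at the 99.6 percentile of 9106 detected protein-coding genes, and in replicate 3 it was -0.80 from it, at the 0.76 percentile. Replicate 2 is the library with the least Malat1 and Neat1, and the part of nuclear RNA in the Csf1 difference was not tested. On the scale of log2 TPM only Csf2rb2 had an SD below that of the median gene, 0.165 against 0.181, while Csf1r had 0.350 and Csf1 0.525.

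Transcripts of 1 gene were set apart by their share of the gene's TPM, in the alignment-based and in the read-based transcript tables. For Csf1 the transcript with the largest share in every library of both was the full-length form Csf1-201, 4176 bases long with a coding part of 1656 bases. Its share was 51.4%, 66.1% and 65.4% in replicates 1, 2 and 3 in the alignment-based tables and 41.4%, 63.0% and 50.5% in the read-based ones, and replicate 1 was lowest in both. Csf1-202, with the short exon 6 and a coding part of 771 bases, held 20.4% ± 4.75 and 9.41% ± 6.00 (SD, n = 3). Csf1-203, which has the full exon 6 and a nearer last exon of 246 bases, held 8.24% ± 2.86 and 12.4% ± 3.61. That transcript has none of the 4 ATTTA matches of Csf1-201.

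Csf1-201 to Csf1-204 are the 4 transcripts that continue from exon 6 to a last exon, and the shares in this paragraph up to that of the last exon are taken of their summed TPM, without the other transcripts of the gene. Those with the short exon 6, the one in the lower of the junction lines above, Csf1-202 and Csf1-204, held 30.1%, 21.1% and 19.9% in the alignment-based tables and 28.3%, 10.04% and 18.999% in the read-based tables. Replicate 1 was highest in both, and the short form was the minor one in every library. Those with the distal last exon, all but Csf1-203, held 90.9% ± 3.22 and 84.3% ± 4.55, and of them Csf1-204 ends before the AU-rich stretch shown. As shares of all Csf1 TPM, the remaining named transcripts were the fragments Csf1-205, at 6.17% ± 1.12 and 13.3% ± 1.30, and Csf1-204, at 1.06% ± 0.80 and 5.71% ± 3.41.

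For Csf1r the tables disagreed on which of a pair of transcripts with the same coding part of 2931 bases was the main one. Csf1r-201 has an additional first exon and Csf1r-202 a longer last exon, which reaches into Hmgxb3. Csf1r-201 had 88.4, 31.8 and 32.5 TPM and Csf1r-202 73.0, 75.01 and 88.2 TPM in the alignment-based tables, so the order changed between libraries there. In the read-based tables Csf1r-201 had 57.8, 47.2 and 44.98 TPM and Csf1r-202 4.88, 4.08 and 4.23 TPM. The mean share of Csf1r-201 was 33.8% ± 13.8 by alignment and 70.2% ± 10.3 by reads. The short fragment Csf1r-205, of 416 bases, held 8.42% ± 5.29 and 21.9% ± 11.1. As a share of estimated counts it held 0.44% and 1.63%. These tables do not settle which end of the Csf1r mRNA these cells used.

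The main transcripts of Csf3r, Csf3r-201 and Csf3r-202, share a coding part of 2511 bases and start at positions 126027292 and 126024550 of chromosome 4. Csf3r-201 held 69.4% ± 4.56 in the alignment-based tables and 45.9% ± 3.33 in the read-based ones, and Csf3r-202 held 16.2% ± 1.27 and 38.4% ± 1.82. By TPM Csf3r-201 was the higher in every library of both tables, though in replicate 3 of the read-based tables only with 42.1% against 39.2%. By read-based counts it was the lower in that library, with 47.5% against 49.1%. Csf3r-203 held 9.998% ± 3.81 in the alignment-based tables and was listed at 0 in the read-based ones, and Csf3r-204 held 4.43% ± 0.21 and 15.7% ± 3.22. Neither of these has a coding part in the annotation.

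**Figure D3:**
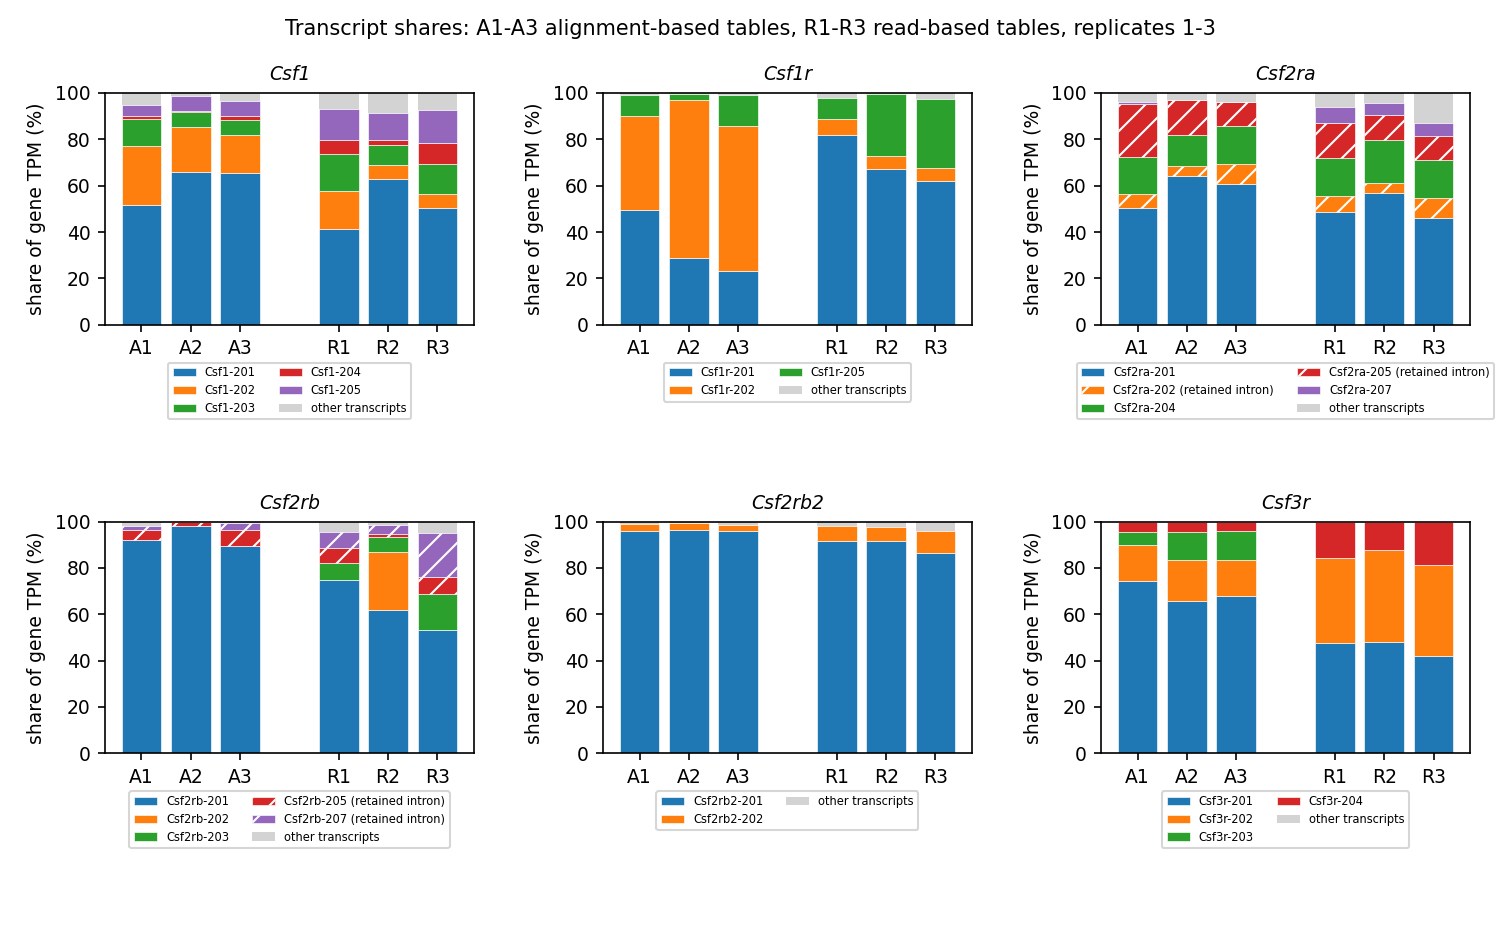
Share of each gene's TPM (%) held by its transcripts, stacked, for the 6 detected genes, with replicates 1 to 3 of the alignment-based tables (A1 to A3) and of the read-based tables (R1 to R3). Hatched blocks are retained-intron transcripts and grey blocks are transcripts under 5% on average in both tables. The orange block of Csf1r-202 averages 57.2% in A1 to A3 and 6.17% in R1 to R3, while Csf2rb2-201 holds over 86% of every bar.

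The beta chains were mostly full-length. Csf2rb-201 held 93.3% ± 4.49 and Csf2rb2-201 96.1% ± 0.32 in the alignment-based tables, and 63.3% ± 11.0 and 89.99% ± 3.01 in the read-based ones. In the read-based tables several other transcripts held more of Csf2rb. Csf2rb-202, of 397 bases, had 25.2% in replicate 2 and was listed at 0 in the others. That share came from 167 estimated counts, or 1.55% of those on Csf2rb. Csf2rb-203 held 9.67% ± 5.26 there, Csf2rb-207 9.89% ± 7.85 and Csf2rb-205 5.11% ± 3.23. As shares of read-based counts these 3 held 0.44%, 0.58% and 3.76% on average, and Csf2rb-201 92.6% ± 3.01. Csf2rb2-202, which lacks part of the coding sequence, held 2.84% ± 0.03 in the alignment-based tables and 7.35% ± 1.99 in the read-based ones.

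Csf2rb2 and Csf3r have no transcript that the annotation classes as a retained intron. Among the receptors that have such transcripts, Csf1r, Csf2ra and Csf2rb, their share was highest for Csf2ra in every library of both tables. In replicate 3 of the read-based tables Csf2rb came near, with 26.2% against 27.3%. As shares of read-based counts these were 7.30% and 22.2%. The coding transcript Csf2ra-201 held 50.5%, 64.2% and 60.9% of the TPM of Csf2ra in the alignment-based tables. The 4 retained-intron transcripts of Csf2ra together held 32.6%, 22.5% and 22.7%. The read-based tables gave 27.9%, 19.5% and 27.3% for the retained-intron transcripts. The mean of 25.9% lay at the 91.6 percentile of 5758 genes with such transcripts, and the read-based mean of 24.9% at the 88.8 percentile, so Csf2ra was high within these libraries by either table. As a share of estimated counts it was 18.04%, since these transcripts are partly short. Csf2ra-205 held 16.0% ± 6.39 and 11.9% ± 2.67, Csf2ra-202 6.21% ± 2.12 and 6.61% ± 2.11, and the non-coding Csf2ra-204 15.3% ± 1.70 and 17.2% ± 1.20. Csf2ra-207, which has the same coding part as Csf2ra-201, held 0.26% ± 0.45 and 5.98% ± 1.00.

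Retained-intron shares were lowest in replicate 2 for each of the 4 genes that have such transcripts, in both tables. Csf2rb had 5.76%, 1.49% and 9.80% in the alignment-based tables and 13.4%, 5.39% and 26.2% in the read-based ones. The median over all 5758 genes moved the same way, with 4.44%, 1.58% and 5.63% and with 6.80%, 2.68% and 9.17%. Malat1 and Neat1 were lowest in the same library. The part of nuclear RNA in these shares was not tested. Csf2ra kept 22.5% in replicate 2, where Csf2rb, Csf1 and Csf1r had 1.49%, 1.14% and 0.23% in the alignment-based tables.

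**Figure D4:**
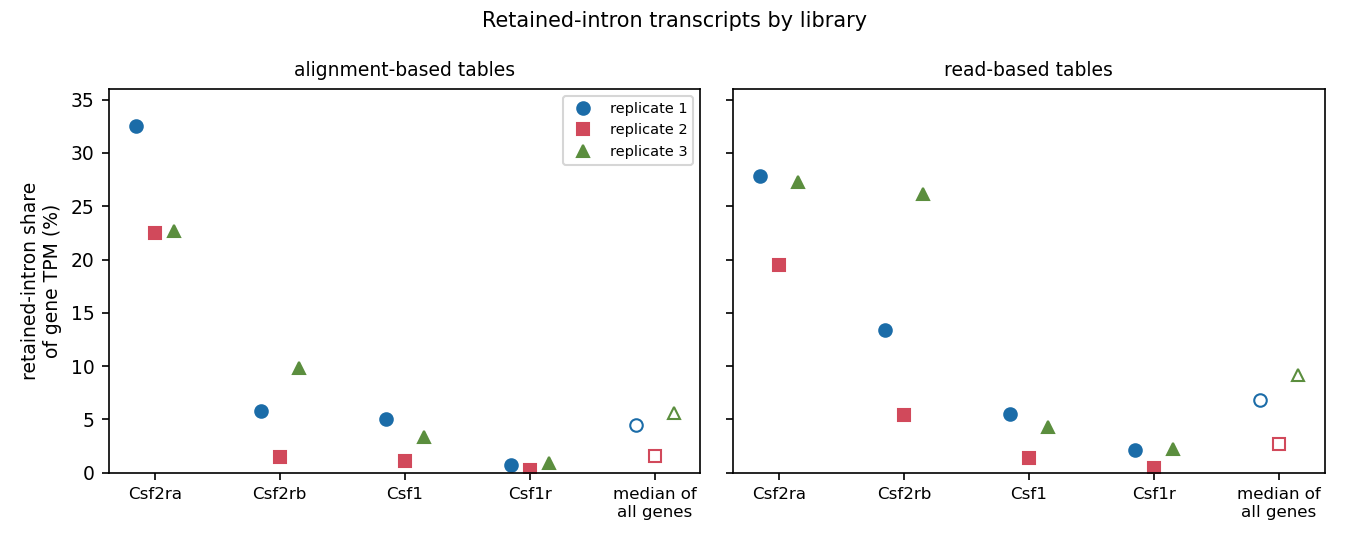
Retained-intron share of gene TPM (%) for the 4 genes with such transcripts, 1 point per library, beside the median over 5758 genes (open symbols). Replicate 2 is lowest in every column, and Csf2ra lies above 19% in all 3 libraries of both tables while the medians lie below 10%.

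Around these genes, the other ligands and receptors of the family were mostly silent. Il3ra, the alpha chain that takes up Il3 with either beta chain, had 15.7, 18.6 and 16.8 TPM. The other ligand of Csf1r, Il34, and the ligand Il3 were at 0 TPM in all 3 libraries, as was Il5ra, and Il5 was at 0.010 TPM at most. Receptor chains for Csf1, Csf2, Csf3 and Il3 were thus present in the RNA with a single detected ligand, Csf1.

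The signalling genes of the receptors were detected throughout, 21 of 21, with a median of 4.73 on the log2(TPM + 1) scale. The adaptor gene Tyrobp, whose product couples several myeloid receptors to the kinase Syk, led with 583 ± 58.5 TPM, followed by the adaptor gene Grb2 at 146 ± 19.9 TPM. The kinase genes Lyn and Syk had 95.2 ± 22.0 TPM and 94.8 ± 19.4 TPM. Of 12 negative regulators 10 were detected, with a median of 4.37. Socs3, which restrains signalling of Csf3r among others, had 155, 139 and 82.0 TPM, and the phosphatase gene Ptpn6 had 112 ± 7.89 TPM. The lipid phosphatase gene Inpp5d had 49.7 ± 5.10 TPM and Adam17, the protease that sheds Csf1r, 31.7 ± 6.29 TPM. Cish and Socs2, known as targets of Stat5, were below 1 TPM in each library, with 0.46, 0.54 and 0.37 TPM for Cish and 0.21, 0.14 and 0.14 TPM for Socs2.

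Of 9 transcription factor genes known to act on the receptor genes 8 were detected, with a median of 4.26. Spi1 led with 99.8 ± 7.03 TPM, before Cebpb at 53.8 ± 17.0 TPM, Irf8 at 50.1 ± 7.13 TPM and Fli1 at 26.1 ± 1.46 TPM, while the granulocyte factor gene Cebpe was at 0.11 TPM at most. All 8 genes for cytokine mRNA binding and decay were detected, with a median of 4.84. Zfp36, which binds AU-rich stretches of the kind shown for Csf2 and Csf3, had 473, 429 and 295 TPM, its relatives Zfp36l1 and Zfp36l2 had 75.5 ± 13.96 TPM and 44.4 ± 10.2 TPM, and Hnrnpd 40.1 ± 1.54 TPM. Of 10 genes known to respond to these receptors 9 were detected, with a median of 4.54. The survival gene Mcl1 had 179 ± 17.6 TPM, Egr1 173 ± 47.9 TPM, the kinase gene Pim1 120 ± 32.2 TPM and Fos 82.9 ± 9.60 TPM, all of which other stimuli also induce, and Irf4 was below 1 TPM in each library.

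Among 16 receptors for other haematopoietic cytokines 12 were detected, with a median of 4.91. Il2rg, the chain shared by several interleukin receptors, had 130 ± 30.8 TPM, the Il10 receptor chain genes Il10rb and Il10ra had 106 ± 10.5 TPM and 59.0 ± 16.2 TPM, and the interferon receptor gene Ifnar2 had 64.9 ± 9.89 TPM. The progenitor receptors Epor and Flt3 were at 0.26 TPM and 0.080 TPM at most. Kit, the receptor tyrosine kinase of stem and mast cells and a relative of Csf1r, was at 0.34 TPM at most. Over the 7 lists 69 of 81 genes were detected, beside the 41.4% of protein-coding genes given above.

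**Figure D5:**
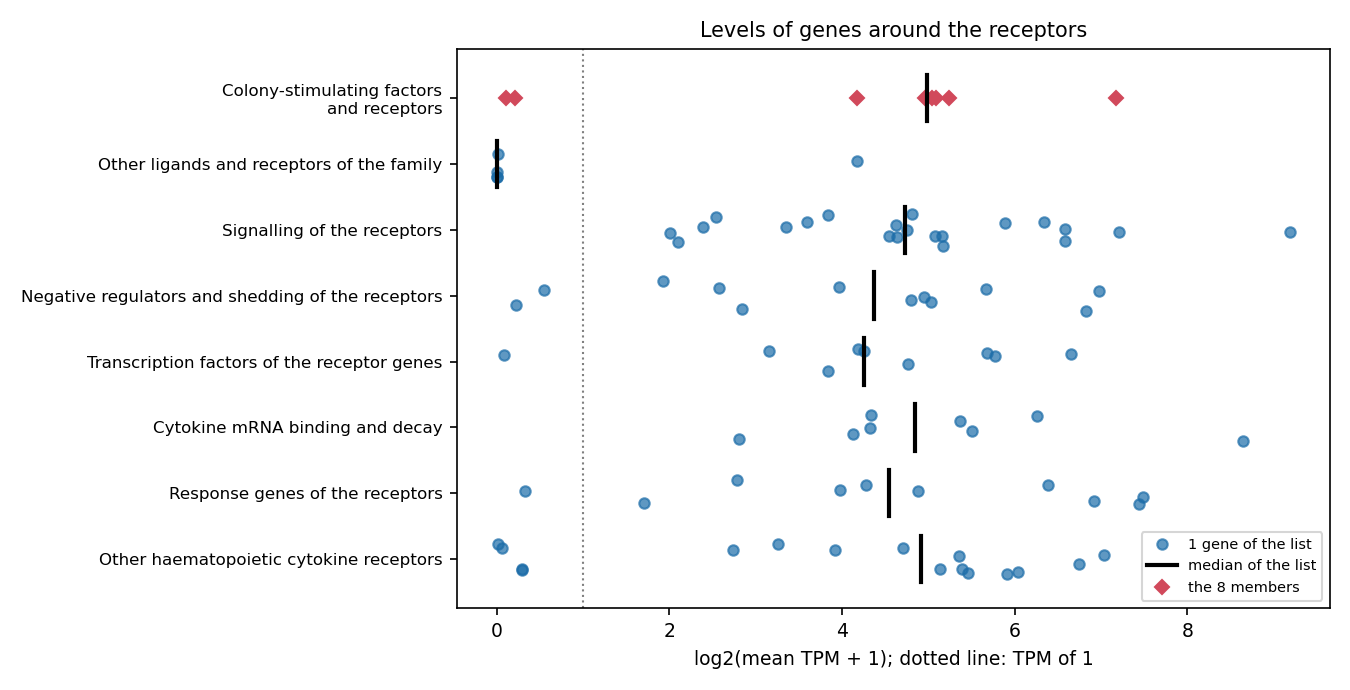
Mean level, log2 of mean TPM plus 1, of each gene in 7 lists around the receptors (blue points) and of the 8 genes themselves (red diamonds), with list medians as black bars and a TPM of 1 as a dotted line. The signalling and mRNA decay lists lie wholly right of the line, and Csf2 and Csf3 lie left of it in the top row.

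Markers of other cells that make or use these factors were near 0, and their part in the levels was not tested. Of 7 dendritic cell markers 0 were detected, with summed levels of 0.90 to 1.81 TPM, most of it Ccr7 at 1.01 ± 0.39 TPM, and Clec9a was at 0.11 TPM at most. None of 6 markers of T and NK cells, which make Csf2 when activated, was detected, and their sums were 0.090 to 0.29 TPM, led by Cd3d and Cd3g at 0.23 TPM and 0.070 TPM at most. Of 6 B cell markers only Cd79b, at 1.53 ± 0.36 TPM, was detected, with sums of 1.51 to 2.22 TPM and Ighm at 0.37 ± 0.10 TPM. None of 8 markers of mast cells, basophils and eosinophils was detected, with sums of 0.15 to 0.49 TPM, led by Kit and by Prg2 at 0.12 TPM at most, and Epx and Fcer1a were at 0 TPM. None of 8 stromal and endothelial markers was detected, with sums of 0.89 to 1.93 TPM, led by Pecam1 at 1.04 ± 0.34 TPM and Cdh5 at 0.24 ± 0.20 TPM. Stromal cells are a known source of Csf1, and their collagen gene Col3a1 and receptor gene Pdgfra were at 0 TPM in each library.

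For each detected gene the nearest protein-coding genes were those with the smallest root mean square difference in log2(TPM + 1) over the 3 libraries, a likeness of level that carries no statement on function. Arap1 (0.065) and Marcks (0.069) were nearest to Csf1r, with 166, 108 and 142 TPM for Arap1. Wasf2 (0.021) and Itsn2 (0.029) were nearest to Csf3r, Hk1 (0.024) and Mgea5 (0.034) to Csf2rb, Etf1 (0.020) and Dctn5 (0.026) to Csf2rb2, and Snrnp70 (0.045) and Ehmt2 (0.047) to Csf2ra. For Csf1 they were Atf5 (0.085), with 16.6, 21.4 and 10.5 TPM, and Krtcap2 (0.15). Csf1 had the least close neighbours, and Atf5, a stress-related transcription factor gene, was likewise highest in replicate 2 and lowest in replicate 3.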

How the data were processed

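Ribosomal-RNA-depleted total RNA from the cytosolic fraction was sequenced in 3 libraries, for which the labels name 1 µg of starting RNA and a size range of 250 to 400 bases. The deposited gene tables hold expected counts, TPM, FPKM, bounds of TPM and a posterior SD of the count, in the column layout of RSEM per the file headers. The deposited transcript tables hold estimated counts and TPM, from transcriptome alignments (alignment-based) or from reads and an index (read-based, in the layout of kallisto per the file headers). The build is mm10 with annotation M21. The programs behind alignment and quantification are not given in the sources used.

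Rows that name no gene (26345, with 0.104% to 0.356% of counts) were left out. Detection asked for at least 1 TPM in each library. The libraries differed from each other by more than sampling noise (chi-square per degree of freedom 44.8 to 113). Differences between genes were tested with limma 3.58.1, two-sided, on log2(TPM + 1) of all detected genes minus that of 1 gene, with Benjamini-Hochberg adjustment over all genes in the fit. This scale understates ratios of low genes. Spread came from an edgeR model (version 4.0.16, R 4.3.3) of the rounded expected counts, whole numbers after rounding, with TMM and filterByExpr, and DESeq2 1.42.0 gave size factors as an alternative. Sequences came from M21 transcripts and the RefSeq promoter table, read in Python 3.11.15. The limma procedure was tested on simulated data, averaged over fits against 5 genes. Where the true difference was 0, 6.85% of genes had a limma p under 0.05 and 6.34% an adjusted p under 0.05. At a true difference of 0.5, 83.7% had an adjusted p under 0.05. The average does not show how the procedure behaves against Csf1 alone.

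The members and lists were chosen with earlier results of these data known. Genes were named by rule: the 8 members, their transcripts with 5% or more of TPM in either table, the 5 other family genes, the 4 highest genes of each pathway list and the first 2 in alphabetical order below 1 TPM in every library, the 2 highest markers of each list with defining markers at 0, and the 2 nearest genes of each detected member. Malat1, Neat1 and Elane, Kit as a cytokine receptor and Gm12223 and Hmgxb3, which overlap members, were named outside it, after their values were seen. Alternatives were other thresholds, pseudocounts, filters, FPKM, read-based and rescaled TPM, and each library left out in turn.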

Additional observations from a re-analysis of the deposited data

How the results depend on the processing

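The 6 detected genes stayed detected in number under all 8 alternatives, and 69 of 81 list genes became 69 at a TPM of 0.5, 60 at 5 and 67 in the read-based tables. Of 8 pairs 3 passed limma; 5 did in the read-based tables, where Csf2rb/Csf2rb2 became 0.51 and Csf2rb/Csf2ra 0.51, while Csf3r/Csf2rb turned to -0.23 and Csf2rb2/Csf2ra to -0.0018. With each library left out in turn, Csf2rb/Csf2rb2 ran from -0.045 to 0.16, Csf2rb2/Csf2ra from -0.066 to 0.24 and Csf2ra/Csf1 from 0.49 to 1.18, the last no longer passing without replicate 1 or without replicate 3, and 2 to 3 pairs passed. Of 6 detected genes 5 had a coefficient of variation below the median gene, 6 without the filter on low counts and 4 without replicate 2. An SD of log2 TPM below the median gene was found for 1, and the cause was not tested. The share of Csf1-201 was 51.6% in the read-based tables and 74.1% of estimated counts, that of Csf1r-201 70.2% in the read-based tables, that of Csf3r-201 45.9% and 76.6%, and the retained-intron share of Csf2ra 18.04% of estimated counts, in which long transcripts weigh more. Of the other results 47 of 196 values moved, 1 of them the coefficient of variation of Csf1 without replicate 2 and the rest levels and transcript shares that passed the spread between libraries. Levels moved with the scale: the mean of Csf1r was 71.3 TPM in the read-based tables and 479.7 TPM rescaled over nuclear protein-coding genes. Depth limits Csf2 and Csf3, at 21 and 16 counts in all. No paired analysis was possible because all samples form 1 group; differences between genes were taken within each library.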
